A study of Mus musculus with 6 samples.

Results

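The genes described here encode 10 surface proteins of B-cell activation and costimulation: Cd69, Cd80, Cd86, Icosl, Cd83, Cd44, Il2ra, Fas, Cd38 and Nt5e. They were chosen by name for their known roles, with earlier results of these data known, out of 46963 gene names in the count table. All 10 passed the filter on low counts and were tested with 14600 genes in all. RNA came from CD43-depleted splenic B-cells of 3 genotypes on the same inbred background, from male and female mice of 8 to 12 weeks. The wt mice carried both enhancers of the immunoglobulin heavy chain (IgH) locus, the Eμ-deficient mice lacked the Eμ enhancer with its flanking matrix attachment regions, and the 3′RR-deficient mice lacked the 3′ regulatory region. Each genotype gave 1 resting library and 1 library stimulated with 5 μg per ml of lipopolysaccharide (LPS), and each library pooled cells of 2 mice. The labels describe resting cells as kept for 2 days in medium without LPS, whereas the methods describe cells taken before stimulation, so that time in culture and LPS cannot be told apart if the methods hold. Depletion of CD43, which is found on T-cells, plasma cells and most myeloid cells, leaves a preparation that is enriched for B-cells and not pure.

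Resting B-cells carry few costimulatory proteins. When the antigen receptor or a Toll-like receptor such as that for LPS is engaged, they display B7 proteins (CD80 and CD86), which bind CD28 and CTLA-4 on T-cells, together with CD69, CD83, CD44, the IL-2 receptor alpha chain and FAS. ICOS ligand engages ICOS on T-cells. CD38 and CD73, the product of Nt5e, are enzymes that act on extracellular NAD and AMP, and CD73, CD80 and other proteins mark memory B-cells in mice.

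After LPS the 3′RR-deficient library held 9111974 counts in genes, the fewest, and the wt library 21998587, the most. Levels are given as CPM, counts relative to a library size scaled by the TMM method, which sets the bulk of genes equal between libraries. With 1 library per genotype and state there was no replicate within a group. Ratios of 2 libraries are therefore given as log2 ratios with 95% exact binomial (Clopper-Pearson) intervals that cover counting error only. The effect of LPS over the 3 genotypes, and each genotype over both states, come from an additive model (edgeR quasi-likelihood, Benjamini-Hochberg adjustment over all 14600 genes, threshold 0.05). The error of this model, drawn in part from other genes, measures how far the 6 libraries depart from additive effects. The spread between mice was not measured. The 3′RR-deficient and wt libraries differed most from each other after LPS. Between them, the 35 spike-in RNAs with at least 100 counts everywhere had log2 ratios with an SD of 1.27, and when genes were ordered by GC content, the median log2 ratio was -0.92 in the first of 10 equal bins and 0.73 in the last. Both also departed from their own resting library, wt with a spike-in SD of 0.784 and bin medians of 0.55 and -0.65, and 3′RR-deficient with an SD of 0.633 and medians of -0.50 and 0.08, against an SD of 0.135 in the Eμ-deficient pair. Spike-in RNAs are added at fixed proportions, so their ratios, centred on their mean, are given below as a measure of technical error between 2 libraries.

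Of the called genes, Il2ra rose and Icosl fell most, and the bases before their annotated starts are shown because each holds a match to the NF-κB consensus, the site of the transcription factor family that LPS activates. The RefSeq promoter table (GRCm38.p6) held 7 of the 10 genes, and had no entry for Cd69, Cd86 and Cd83. The capitals mark the consensus on either strand. In Il2ra the capitals are a pair of overlapping matches, and the first base shown lies 250 bases before the RefSeq start. In Icosl the stretch begins at the same distance and ends at the base before the start of the GENCODE gene. Both are on the plus strand.
Il2ra, chr2:11642542-11642791: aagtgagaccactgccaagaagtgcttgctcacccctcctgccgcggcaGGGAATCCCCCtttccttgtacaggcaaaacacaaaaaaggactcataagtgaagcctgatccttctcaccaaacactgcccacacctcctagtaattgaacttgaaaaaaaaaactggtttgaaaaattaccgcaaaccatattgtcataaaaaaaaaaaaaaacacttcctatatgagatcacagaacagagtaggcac
Icosl, chr10:78069118-78069301: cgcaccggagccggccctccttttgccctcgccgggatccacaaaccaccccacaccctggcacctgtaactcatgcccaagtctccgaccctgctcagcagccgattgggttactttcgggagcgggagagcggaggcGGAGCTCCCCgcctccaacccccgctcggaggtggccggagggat

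The consensus was found on either strand of the 250 bases before the start in 2 of the 7 genes, and in 7.25% of 32851 RefSeq promoters. The AP-1 motif TGANTCA was found in 2 of the 7 (Cd80 and Fas) and in 6.75% of all, and the E-box CACGTG in 1 (Fas) and in 6.02% of all. These matches describe the letters only. Il2ra and Icosl, which share the NF-κB match, moved in opposite directions after LPS stimulation.

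LPS stimulation changed 6 of the 10 genes. Il2ra rose, and Icosl, Cd69, Cd86, Nt5e and Cd83 fell, whereas Cd38, Cd44, Cd80 and Fas did not pass the test. The 6 called genes compare with 41% of all genes tested, the 1 called higher with 20.7% and the 5 called lower with 20.4%. The same 6 genes had LPS values wholly above or below the 3 resting values, 1 above (25.7% of all genes) and 5 below (26.1%). The median log2 fold change of the 10 genes was -0.65, against -0.03 over all genes. In a bulk sample, a lower level may stand for less RNA per cell or for fewer cells of the kind that carries it, and these cannot be told apart.

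**Figure D1:**
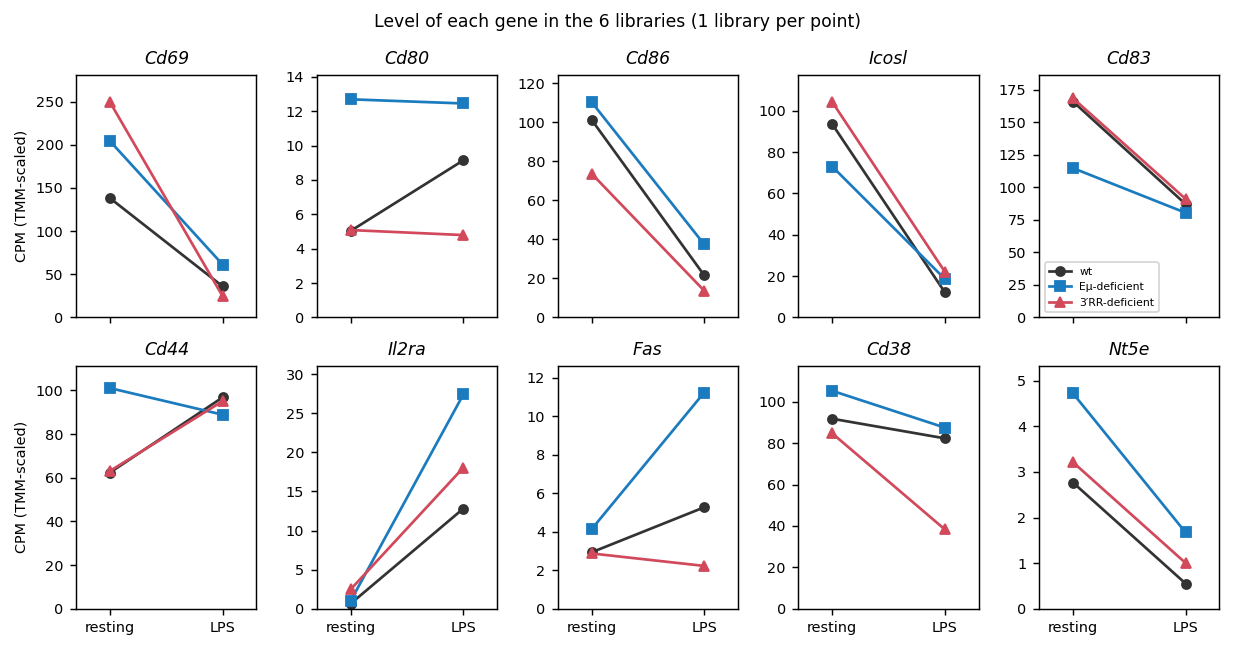
Level (TMM-scaled CPM, linear axes from 0) of each of the 10 genes in the resting and the LPS-stimulated library of each genotype, with 1 library per point and a line joining the libraries of a genotype. The lines of Il2ra all rise and those of Cd69, Cd86, Icosl, Cd83 and Nt5e all fall without overlap, whereas those of Cd80, Cd44 and Fas point different ways.

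Il2ra encodes the alpha chain of the IL-2 receptor (CD25), which raises the affinity of the receptor for IL-2. The gene (ENSMUSG00000026770.5) lies on chromosome 2 from 11642807 to 11693193 on mm10 (GRCm38). At rest it had 12 counts (0.664 CPM) in wt, 14 counts (1.03 CPM) in Eμ-deficient and 52 counts (2.49 CPM) in 3′RR-deficient B-cells. After LPS stimulation it had 255 (12.8 CPM), 295 (27.4 CPM) and 162 counts (18.0 CPM), respectively. All 3 LPS-stimulated libraries lay above all resting ones, and the wt library was the lowest in each state. The log2 fold change over the genotypes was 3.86 (SE 0.39, adjusted p = 0.000182), a 14.5-fold rise, and 99.4% of genes tested had a lower value. Within genotypes the log2 ratio was 4.27 (95% interval 3.44 to 5.24) in wt, 4.73 (3.96 to 5.62) in Eμ-deficient and 2.86 (2.397 to 3.335) in 3′RR-deficient B-cells. Regulatory T-cells also carry this gene. Of the T-cell markers, Ctla4, which these cells carry too, had 4.70, 12.1 and 5.42 CPM in resting wt, Eμ-deficient and 3′RR-deficient B-cells and 6.33, 22.8 and 10.8 CPM after LPS (adjusted p = 0.0422), while Foxp3 had 8 counts or fewer in every library. Of the 8 T-cell markers tested, Ctla4 was the only 1 called higher after LPS, and 6 were called lower (20.4% of all genes tested). The part of T-cells in the level of Il2ra was not tested.

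Icosl encodes ICOS ligand, a B7-related protein that B-cells carry at rest. The gene (ENSMUSG00000000732.9) lies on chromosome 10 from 78069302 to 78083913. It had 93.5, 73.0 and 104.2 CPM in resting wt, Eμ-deficient and 3′RR-deficient B-cells, and 12.1, 18.6 and 22.1 CPM after LPS stimulation. The groups did not overlap, and the wt library, which was the middle one at rest, was the lowest after LPS. Over the genotypes Icosl fell with a log2 fold change of -2.39 (SE 0.25, adjusted p = 0.000233). Within genotypes the log2 ratio was -2.95 (95% interval -3.15 to -2.75) in wt, -1.97 (-2.20 to -1.75) in Eμ-deficient and -2.24 (-2.46 to -2.03) in 3′RR-deficient B-cells.

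Cd86 and Cd80 encode the B7 ligands of CD28 and CTLA-4, and both lie on chromosome 16, Cd86 (ENSMUSG00000022901.13) from 36603869 to 36666081 on the minus strand and Cd80 (ENSMUSG00000075122.5) from 38455561 to 38496335 on the plus strand. Cd86 had 101.3, 110.4 and 73.7 CPM in resting wt, Eμ-deficient and 3′RR-deficient B-cells and 21.6, 37.4 and 13.7 CPM after LPS stimulation. Every LPS-stimulated library was below every resting one, with the 3′RR-deficient library lowest and the Eμ-deficient library highest in both states. The log2 fold change was -2.07 (SE 0.25, adjusted p = 0.000382), with log2 ratios of -2.23 (95% interval -2.38 to -2.08) in wt, -1.56 (-1.72 to -1.40) in Eμ-deficient and -2.43 (-2.70 to -2.16) in 3′RR-deficient B-cells. Cd80 had 5.04, 12.7 and 5.08 CPM at rest and 9.14, 12.4 and 4.79 CPM after LPS. It was thus higher after LPS in the wt library, with a log2 ratio of 0.86 (95% interval 0.49 to 1.24), while the intervals in Eμ-deficient (-0.36 to 0.31) and 3′RR-deficient B-cells (-0.63 to 0.44) included 0. Over the genotypes its log2 fold change was 0.26 (SE 0.30, adjusted p = 0.523). Divided by the exon length of each gene, the level of Cd86 was 20.4, 8.80 and 14.7 times that of Cd80 in the resting wt, Eμ-deficient and 3′RR-deficient libraries, and 2.39, 3.04 and 2.89 times after LPS. The ratio of the B7 genes was therefore lower in each LPS-stimulated library than in any resting library, without a test.

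Macrophages and dendritic cells also carry Cd86, Cd80, Cd83 and Cd44, and their markers fell in the same comparison. The summed level of 9 myeloid and dendritic cell markers ran from 206 to 465 CPM in resting and from 52.6 to 64.8 CPM in LPS-stimulated libraries. Of the 9, 8 were called lower, against 20.4% of all genes tested. Csf1r, a receptor of macrophages, had between 36.2 and 100.4 CPM at rest and between 0.301 and 2.60 CPM after LPS, and Itgax, a marker of dendritic cells, fell from between 36.1 and 74.96 to between 0.301 and 0.780 CPM. No marker of this list was at 0 in any library. The part of these cells in the fall of Cd86 was not tested.

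Cd69 encodes a lectin-like receptor that appears early in activation and retains lymphocytes in tissue by removing the receptor S1PR1 from the surface. The gene (ENSMUSG00000030156.5) lies on the minus strand of chromosome 6 from 129267325 to 129275436. It had 138.1, 204.2 and 249.3 CPM in resting wt, Eμ-deficient and 3′RR-deficient B-cells and 36.0, 61.2 and 24.5 CPM after LPS stimulation. The 3′RR-deficient library was the highest at rest and the lowest after LPS, and no LPS value reached a resting one. Over the genotypes Cd69 had a log2 fold change of -2.33 (SE 0.33, adjusted p = 0.000936). Within genotypes the log2 ratio was -1.94 (95% interval -2.06 to -1.82) in wt, -1.74 (-1.86 to -1.61) in Eμ-deficient and -3.35 (-3.55 to -3.15) in 3′RR-deficient B-cells. Its transcript has the lowest GC content of the 10 genes, 35.9%, and with the trend of the libraries on GC content removed the ratios were -2.63, -1.67 and -2.76, so that the 3′RR-deficient value no longer stood apart from wt.

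Cd83, a transmembrane protein that keeps MHC class II and CD86 at the surface, was the most abundant of the 10 genes per kb of exon in each of the 6 libraries, between 31.3 and 65.5 CPM per kb. The gene (ENSMUSG00000015396.4) lies on chromosome 13 from 43784775 to 43803132. It had 166.0, 114.8 and 168.6 CPM in resting wt, Eμ-deficient and 3′RR-deficient B-cells and 87.1, 80.5 and 91.1 CPM after LPS. The groups did not overlap, and the Eμ-deficient library was the lowest in both states. Its log2 fold change was -0.78 (SE 0.23, adjusted p = 0.0267), the smallest fall among the called genes. It lost the call without the LPS-stimulated 3′RR-deficient library (adjusted p = 0.135), without both 3′RR-deficient libraries (adjusted p = 0.102) and without both Eμ-deficient libraries (adjusted p = 0.137), fits with fewer libraries.

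Nt5e, which encodes the ectoenzyme CD73 that turns AMP into adenosine, was the least abundant of the 10 genes per kb in the LPS-stimulated libraries. The gene (ENSMUSG00000032420.8) lies on chromosome 9 from 88327197 to 88372092. It had 50, 64 and 67 counts (2.77, 4.72 and 3.21 CPM) in resting wt, Eμ-deficient and 3′RR-deficient B-cells and 11, 18 and 9 counts (0.553, 1.67 and 1.003 CPM) after LPS. The groups did not overlap, and the Eμ-deficient library was the highest in both states. Its log2 fold change was -1.81 (SE 0.40, adjusted p = 0.00639), with wide intervals within genotypes, from -3.41 to -1.36 in wt, from -2.34 to -0.72 in Eμ-deficient and from -2.87 to -0.67 in 3′RR-deficient B-cells.

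Cd38 encodes an ectoenzyme that uses NAD and is high on mature B-cells. The gene (ENSMUSG00000029084.5) lies on chromosome 5 from 43868553 to 43912375. It had 91.8, 105.3 and 84.7 CPM in resting wt, Eμ-deficient and 3′RR-deficient B-cells and 82.3, 87.5 and 38.3 CPM after LPS. All 3 genotypes had a lower value after LPS, but the states overlapped, because the LPS-stimulated Eμ-deficient library lay above the resting 3′RR-deficient one. The log2 fold change was -0.52 (SE 0.26, adjusted p = 0.146), and it passed the test with the trend on GC content removed (-0.53, adjusted p = 0.0368), without both wt libraries (-0.70, adjusted p = 0.00903) and without the LPS-stimulated one alone (-0.72, adjusted p = 0.0396).

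Cd44, the hyaluronan receptor, lies on the minus strand of chromosome 2 from 102811141 to 102901665 (ENSMUSG00000005087.17). It had 62.4, 101.1 and 63.1 CPM in resting wt, Eμ-deficient and 3′RR-deficient B-cells and 96.8, 88.9 and 95.1 CPM after LPS. The resting Eμ-deficient library was above all LPS-stimulated ones, so that the states overlapped. LPS gave a log2 ratio of 0.63 (95% interval 0.53 to 0.74) in wt, of -0.19 (-0.31 to -0.06) in Eμ-deficient and of 0.59 (0.47 to 0.72) in 3′RR-deficient B-cells. Over the genotypes the log2 fold change was 0.35 (SE 0.25, adjusted p = 0.297).

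Fas encodes the death receptor CD95, through which T-cells remove activated B-cells. The gene (ENSMUSG00000024778.13) lies on chromosome 19 from 34290666 to 34327772. It had 53, 56 and 60 counts (2.93, 4.13 and 2.88 CPM) in resting wt, Eμ-deficient and 3′RR-deficient B-cells and 105, 121 and 20 counts (5.27, 11.2 and 2.23 CPM) after LPS. The wt and Eμ-deficient libraries were higher after LPS, with log2 ratios of 0.85 (95% interval 0.36 to 1.35) and 1.44 (0.98 to 1.93), while the interval in 3′RR-deficient B-cells (-1.18 to 0.38) included 0. The log2 fold change over the genotypes was 0.70 (SE 0.38, adjusted p = 0.183). Without the LPS-stimulated 3′RR-deficient library it was 1.15 (adjusted p = 0.0331), and without both 3′RR-deficient libraries 1.09 (adjusted p = 0.0468).

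**Figure D2:**
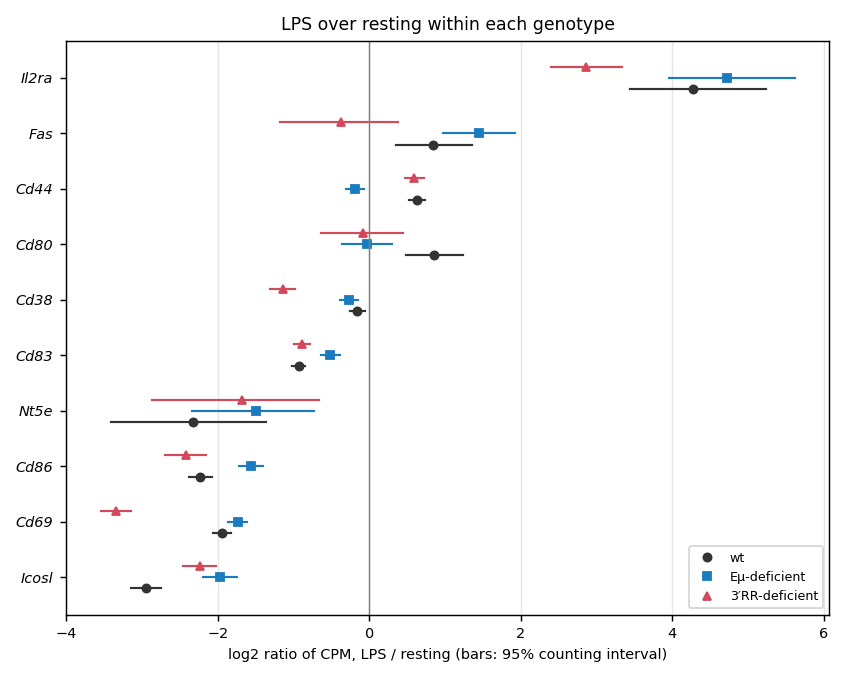
Log2 ratio of CPM of the LPS-stimulated to the resting library within each genotype for the 10 genes, ordered by their log2 fold change, with bars for the 95% counting interval. The 3 genotypes share the direction for Il2ra, Cd38, Cd83, Nt5e, Cd86, Cd69 and Icosl, and differ in it for Fas, Cd44 and Cd80.

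The ratios were set beside those of the spike-in RNAs. Between LPS-stimulated and resting libraries, the centred log2 ratios of the spike-ins ran from -0.93 to 2.04 in wt, from -0.25 to 0.29 in Eμ-deficient and from -1.44 to 1.09 in 3′RR-deficient B-cells. Il2ra lay above, and Cd69, Cd86, Icosl and Nt5e lay below these ranges in all 3 genotypes. In Eμ-deficient B-cells, where the range was the narrowest, Cd83 and Cd38 also lay below it and Fas above it. The counting intervals of Nt5e in 3′RR-deficient and of Cd38 in Eμ-deficient B-cells reached into the range.

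**Figure D3:**
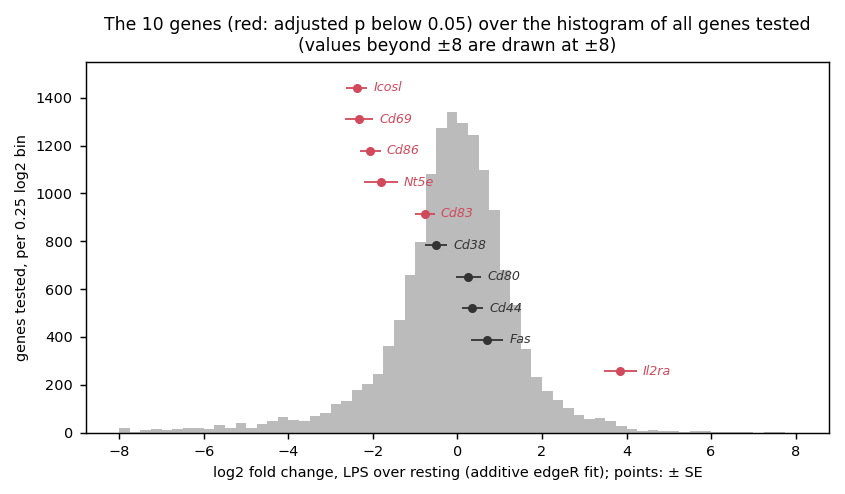
Log2 fold change of LPS-stimulated over resting B-cells in the additive model, as a histogram of all 14600 genes tested (grey, genes per bin) with the 10 genes drawn as points with their SE at arbitrary heights. Il2ra (3.86) lies at the right edge of the histogram and Icosl (-2.39), Cd69 (-2.33), Cd86 (-2.07) and Nt5e (-1.81) in its left flank, while Cd38, Cd80, Cd44 and Fas lie in its bulk.

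The 42 genes related to these by family or pathway gave 39 that were tested, of which 8 were called higher after LPS, 14 were called lower and 17 did not pass the test, with a median log2 fold change of -0.51. Over all genes tested, 20.7% were called higher and 20.4% lower, with a median of -0.03. These shares also stand beside the counts of each group below. Among the B7 and CD28 family ligands, 2 of 4 tested genes were lower and 0 were higher. Cd274, the inhibitory ligand PD-L1, was the highest of them per kb and fell from between 137.3 and 194.0 CPM to between 22.2 and 50.7 CPM (log2 fold change -2.47, SE 0.26, adjusted p = 0.000225). Pdcd1lg2, the ligand PD-L2, fell with it (-2.05, SE 0.34, adjusted p = 0.00166). Vtcn1 was not tested.

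In the TNF family of costimulatory genes, 2 of 7 tested genes were higher and 2 were lower. Cd40, which receives help from T-cells and was the highest of the group, had a log2 fold change of 0.17 (SE 0.22, adjusted p = 0.564). Tnfsf4, the OX40 ligand, had 3, 3 and 1 counts in the resting wt, Eμ-deficient and 3′RR-deficient libraries and 16, 26 and 4 counts after LPS (adjusted p = 0.00749), too few at rest for a fold. Tnfsf9, the 4-1BB ligand, rose (1.91, SE 0.61, adjusted p = 0.0362) and had 34 counts at most in a library. Cd27 fell (-2.29, SE 0.69, adjusted p = 0.0196) and had 23 counts at most. Cd70 was not tested. The called genes of this group had 120 counts or fewer in every library.

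Of 6 genes for the partners of Il2ra and related receptor chains, 0 were called higher and 2 lower, Il4ra (-1.09, SE 0.31, adjusted p = 0.0235) and the common gamma chain Il2rg (-0.77, SE 0.22, adjusted p = 0.0233). The beta chain Il2rb, chosen after its values were seen because it pairs with Il2ra, had a log2 fold change of -0.17 (SE 0.46, adjusted p = 0.801). LPS gave it a log2 ratio of -1.63 (interval -2.15 to -1.13) in wt and 1.18 (0.77 to 1.59) in Eμ-deficient B-cells. The ratio in 3′RR-deficient B-cells was -0.13 (-0.599 to 0.32), so that the direction differed between genotypes. Il21r, the highest of the group per kb, had a log2 fold change of 0.36 (SE 0.28, adjusted p = 0.331). Its log2 ratios were -0.26 in wt, 0.87 in Eμ-deficient and 0.47 in 3′RR-deficient B-cells.

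In Fas signaling, 1 of 6 tested genes was called lower, Fasl. This gene, the ligand of Fas, which cytotoxic lymphocytes carry, had 14, 13 and 10 counts in the resting wt, Eμ-deficient and 3′RR-deficient libraries and 2, 1 and 1 counts after LPS. The initiator caspase Casp8, the highest of the group, had a log2 fold change of -0.01 (SE 0.21, adjusted p = 0.982).

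Among 6 tested genes for enzymes and receptors of extracellular nucleotides and NAD, 1 was higher and 3 were lower. Ada, adenosine deaminase, which removes the adenosine that CD73 makes, rose (2.26, SE 0.30, adjusted p = 0.000653). The ATP receptor P2rx7 fell (-2.78, SE 0.39, adjusted p = 0.000636), as did the ectoenzyme Enpp1 (-1.21, SE 0.29, adjusted p = 0.0108). Entpd1, the ectoenzyme CD39 that yields the AMP on which CD73 acts, was the third gene called lower (-0.77, SE 0.23, adjusted p = 0.0267), and is named after its value was seen. Adora2b was not tested.

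Of 10 other surface genes of lymphocyte activation, 4 were higher and 4 were lower. Ly6a (2.27, SE 0.33, adjusted p = 0.00121), Cd24a (1.91, SE 0.31, adjusted p = 0.00189) and Slc7a5, an amino acid transporter (1.83, SE 0.30, adjusted p = 0.00203), rose most, and Cd24a was the highest of the group per kb. Between mutant and wt libraries, 0 of the 39 genes were called in either genotype, against 1.14% of all genes in Eμ-deficient and 0.76% in 3′RR-deficient B-cells.

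The preparations were checked against markers of the cells they could hold. Over all genes tested, 20.7% were called higher after LPS and 20.4% lower. The summed level of 6 B-cell markers ran from 2418 to 2994 CPM at rest and from 1607 to 1975 CPM after LPS, and of the 6 only Cr2 was called, lower. T-cell markers, 9 genes, ran from 23.5 to 53.0 and from 7.43 to 31.6 CPM, with 6 of 8 tested called lower and Ctla4 called higher. Of these, Cd3e was at 0 in LPS-stimulated wt B-cells, Cd8a at 0 in LPS-stimulated wt and 3′RR-deficient B-cells, and Foxp3 at 0 in the latter. NK cell markers ran from 5.92 to 6.57 and from 0.201 to 2.51 CPM, with 3 of 3 tested called lower, and after LPS Klrb1c was at 0 in every library, Ncr1 in wt and 3′RR-deficient B-cells and Gzma in wt. Plasma cell markers ran from 175 to 1819 and from 329.5 to 1213 CPM, with 2 of 4 called higher. Spn, which encodes the CD43 used for the depletion, rose from between 9.89 and 16.9 to between 21.05 and 89.3 CPM (log2 fold change 1.68, adjusted p = 0.00506).

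Between genotypes, no gene of the 10 was called. In Eμ-deficient against wt B-cells, 0 of the 10 passed the threshold in the additive edgeR model (1.14% of all genes) and 0 in DESeq2. For the 3′RR deletion against wt, 0 passed in the edgeR model (0.76% of all genes) and 0 in DESeq2. The comparisons share the wt libraries, and the following ratios compare libraries and not genotypes.

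In the Eμ-deficient libraries, 7 of the 10 genes were higher than in wt in both states, Cd83 was lower in both, and Icosl and Cd44 changed sides. With the GC trend removed, 4 were higher in both states (Cd80, Il2ra, Fas and Nt5e), and with scaling by the total count 6 were, without Cd86, and Cd83 changed sides. The median log2 fold change was 0.58, against -0.08 over all genes. The share of all genes higher in both states is not given here. Across all genes, the median ratio at rest was 0.42 in the lowest of 10 GC bins and -0.48 in the highest. After LPS these medians were -0.31 and 0.13. Cd80 had the largest ratio at rest, 1.33 (95% interval 0.96 to 1.72), and 0.45 (0.11 to 0.78) after LPS, and in the model 0.86 (SE 0.36, adjusted p = 0.549). Nt5e had 0.77 (0.21 to 1.33) and 1.60 (0.44 to 2.83), and in the model 1.0998 (SE 0.47, adjusted p = 0.564). Il2ra was higher after LPS by a log2 ratio of 1.097 (0.85 to 1.34), Fas by 1.09 (0.70 to 1.48), Cd86 by 0.79 (0.59 to 0.99) and Cd69 by 0.77 (0.61 to 0.92). These 4 and Nt5e lay above the highest spike-in ratio of the LPS-stimulated pair, 0.67, and at rest only Cd80 lay above that of the resting pair, 1.15. The counting intervals of Cd86, Cd69 and Nt5e after LPS and of Cd80 at rest reached into the range of the spike-ins. In the LPS-stimulated pair the marker sums of other cells were also higher in the Eμ-deficient library, with 31.6 against 7.43 CPM for T-cells, 2.51 against 0.201 for NK cells, 64.8 against 52.6 for myeloid and dendritic cells and 1213 against 329.5 for plasma cells. Single genes made most of 2 of these sums in the Eμ-deficient library, Ctla4 with 22.8 CPM for T-cells and Jchain with 796 CPM for plasma cells. The NK cell markers had 12 counts or fewer in each library of the pair. In the myeloid and dendritic list, Itgam, Flt3 and Xcr1 were lower in the Eμ-deficient library, and the others were higher. The part of other cells in these ratios was not tested.

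At rest, Cd44 had a log2 ratio of 0.70 (0.58 to 0.81) and Cd83 one of -0.53 (-0.62 to -0.44) in Eμ-deficient over wt B-cells, and both lay within the range of the spike-ins, -0.61 to 1.15. The resting Eμ-deficient library also had the highest marker sums of myeloid and dendritic cells, 465 CPM against 206 in wt, of T-cells, 53.0 against 23.5, and of plasma cells, 1819 against 175. Jchain alone made 1691 CPM of the plasma cell sum, against 114 CPM in wt. Cd3g and Cd8a of the T-cell list were lower than in wt. The part of other cells in the ratios of Cd80, Cd44 and Nt5e was not tested.

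In the 3′RR-deficient libraries, 4 of the 10 genes were higher than in wt in both states (Icosl, Cd83, Il2ra and Nt5e), 3 were lower (Cd86, Fas and Cd38) and 3 changed sides (Cd69, Cd80 and Cd44). With scaling by the total count, 2 were higher in both states (Il2ra and Nt5e), and with the GC trend removed 4 were, Cd69 in place of Cd83. Shares over all genes are not given for these counts. The median log2 fold change was 0.02, against -0.02 over all genes. At rest, where the spike-ins ran only from -0.23 to 0.35, Il2ra had a log2 ratio of 1.91 (95% interval 0.98 to 2.95), Cd69 one of 0.85 (0.78 to 0.92) and Cd86 one of -0.46 (-0.56 to -0.36), all 3 outside that range. The resting marker sum of T-cells was 27.2 CPM in the 3′RR-deficient and 23.5 in the wt library. Of that list, Cd4, Cd28 and Icos were lower than in wt and the others higher, Foxp3 with 8 against 3 counts. Myeloid and dendritic cell markers had 210 against 206 CPM. The part of other cells in the ratios of Il2ra, Cd69 and Cd86 was not tested. In the model, Il2ra had a log2 fold change of 1.14 (SE 0.46, adjusted p = 0.806), and of 2.05 (adjusted p = 0.0654) without the LPS-stimulated 3′RR-deficient library. The resting Cd83 (0.02, -0.05 to 0.09), Cd44 (0.02, -0.10 to 0.13) and Cd80 (0.01, -0.40 to 0.43) had intervals that included 0.

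**Figure D4:**
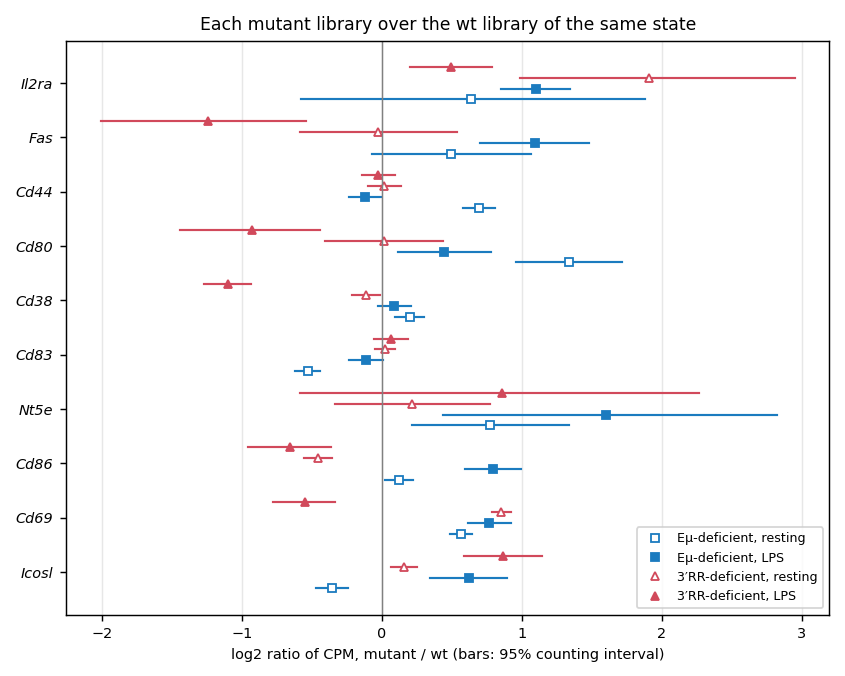
Log2 ratio of CPM of each mutant library to the wt library of the same state for the 10 genes (open symbols for resting, filled for LPS-stimulated B-cells), with bars for the 95% counting interval. The Eμ-deficient points lie mostly to the right of 0, though the resting ones of Cd69, Cd86 and Cd38 fall to its left with the GC trend removed, and the filled 3′RR-deficient points of Fas, Cd38, Cd80, Cd86 and Cd69 lie to the left, where Cd69 does not stay with that trend removed.

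After LPS, the lowest ratios in 3′RR-deficient over wt B-cells were those of Fas (-1.24, -2.01 to -0.54), Cd38 (-1.103, -1.28 to -0.93), Cd80 (-0.93, -1.45 to -0.45), Cd86 (-0.66, -0.96 to -0.36) and Cd69 (-0.55, -0.78 to -0.33). Icosl had the highest, 0.87 (0.59 to 1.14). All 10 lay within the range of the spike-ins, -2.995 to 1.78. The 5 genes with the lowest ratios have transcripts of 35.9% to 43.9% GC, and Icosl, Cd83, Nt5e and Il2ra, with ratios above 0, of 52.5%, 51.8%, 47.96% and 44.4%. With the trend of the libraries on GC content removed, the ratio of Cd38 was -0.38, of Cd80 -0.36, of Cd86 -0.13, of Fas -0.78, of Icosl 0.57 and of Il2ra, which was 0.49 before, 0.91. That of Cd69 was then 0.48, on the other side of 0.

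**Figure D5:**
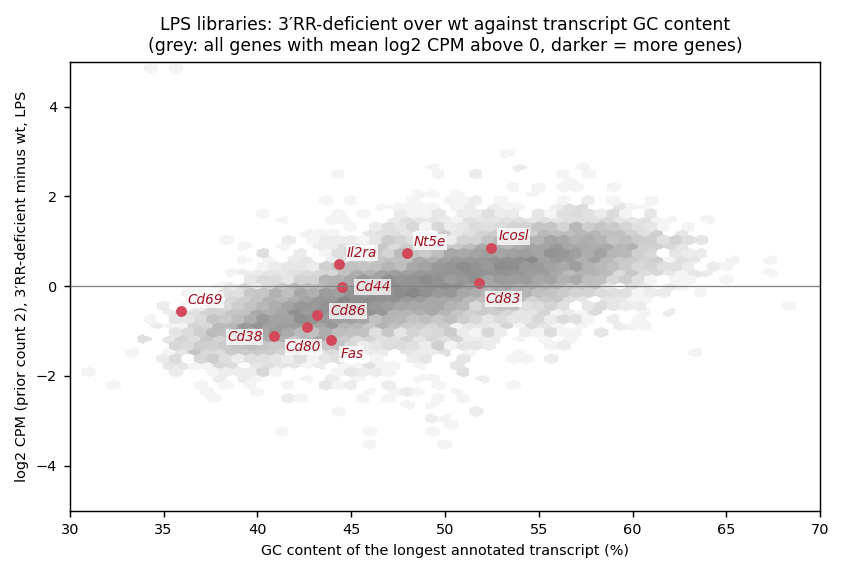
Log2 difference in CPM (prior count 2) between the LPS-stimulated 3′RR-deficient and wt libraries against the GC content of the longest annotated transcript, for all genes with a mean log2 CPM above 0 (grey, darker where more genes lie) and the 10 genes (red). The grey cloud rises from left to right, and Cd38, Cd80, Cd86 and Fas lie below 0 on its left side while Icosl lies above 0 on its right side.

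For each of the 10 genes, the tested gene with the most similar pattern over the 6 libraries was found by the smallest root mean square difference of log2 CPM, after centring each gene on its mean. For Cd83 it was Otulin (difference 0.05), for Cd44 it was Flt3 (0.07), for Nt5e it was Tubg2 (0.10), for Cd38 it was Dcun1d3 (0.10) and for Cd80 it was Tnfsf8, the CD30 ligand (0.12). For Icosl it was Neil1 (0.14), for Cd86 it was Antxr2 (0.14), for Fas the noncoding RNA A430106G13Rik (0.16) and for Cd69 it was Gprc5c (0.17). Il2ra had the least similar neighbour, Psrc1 (0.38). With 6 libraries that differ in state and GC trend, many genes follow such patterns, and the likeness is a description of these libraries.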

How the data were processed

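CD43-depleted B-cells of the spleen from 3 genotypes (wt, lacking Eμ or lacking the 3′RR) were profiled by RNA-seq at rest and after LPS stimulation, 6 libraries in all, grouped by their titles. The authors depleted ribosomal RNA, made stranded libraries, mapped paired reads of 150 nt with STAR 2.4.0a to mm10 with Ensembl release 77, and deposited raw counts per gene name from featureCounts (Subread 1.4.6-p1), with multi-mapping fragments counted. Multi-mapping counts can move reads between near-identical genes. The methods give 4 mice and 2 pools per genotype, the labels 1 pool of 2 mice per library. The 92 spike-in RNAs, which name no gene, took 4.75% to 7.10% of counts and entered neither library sizes nor tests. Depth ran from 9111974 to 21998587 counts in genes, and intervals take no account of error beyond counting, because reads from PCR can stem from the same molecule.

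Library sizes were scaled by TMM (edgeR 4.0.16, R 4.3.3). The quasi-likelihood model had genotype and state as additive terms and 2 residual degrees of freedom, on the 14600 genes that reached 10 counts in 2 libraries or more. Its test moderates the dispersion of each gene toward that of all genes, so the p-values rest on more than those 2. No test was made within a state. Fold changes carry SEs from the model's weights and posterior dispersion. A library at or under 3 counts was set to 3 counts in ratios. Binomial intervals used scipy 1.17.1. Exon lengths, coordinates and GC content come from GENCODE M21 (GRCm38, the build of the files), where 44131 names matched and 764 more through an older name. None of the 10 genes had an exon that overlaps another gene's. The GC trend was a loess fit per library. Vsir and Faslg were read under the table's names, 4632428N05Rik and Fasl. The genes and lists were chosen with earlier results of these data known. All 10 genes are named. Some results on related and marker genes are not reported here. Of the related genes, those named were, per group, up to 3 called genes with the largest change and the gene with the highest level per kb. Alternatives were other scalings, DESeq2 1.42.0, other filters, GC correction, a log2(CPM + 1) scale, fits without the genotype term and fits to fewer libraries. Other scalings for the non-overlap counts and the fit without the LPS-stimulated wt library were added after the data were seen.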

Additional observations from a re-analysis of the deposited data

Results flagged for a closer look

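The effect of LPS was compared between genotypes, and each mutant's ratio to wt between states. The mutants' ratios to wt were not compared with each other here, since they share the wt library. In these comparisons 3 of the 10 genes had ratios on opposite sides of 0, each with a counting interval that excluded 0. None of these differences was tested, since each group has 1 library. Of these ratios, only the resting one of Cd69 lay outside the range of the spike-ins between its libraries, -0.23 to 0.35. Cd69 was higher in the 3′RR-deficient than in the wt library at rest, by a log2 ratio of 0.85, and lower after LPS, by -0.55, a difference of -1.41. With the trend on GC content removed both ratios were above 0, at 0.61 and 0.48. Icosl was lower in the Eμ-deficient than in the wt library at rest (-0.36) and higher after LPS (0.62), a difference of 0.98, and kept both directions with the trend removed, at -0.25 and 0.47.

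Cd44 had a higher level after LPS in wt (log2 ratio 0.63) and 3′RR-deficient B-cells (0.59) and a lower one in Eμ-deficient B-cells (-0.19). The Eμ-deficient value differed from wt by -0.82, and the 3′RR-deficient value from the Eμ-deficient one by 0.78. The same 4 libraries gave a log2 ratio of Eμ-deficient to wt of 0.70 at rest and -0.12 after LPS, again a difference of -0.82. With the GC trend removed, the LPS ratios were 0.36 in wt, 0.77 in 3′RR-deficient and -0.15 in Eμ-deficient B-cells.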

How the results depend on the processing

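The count of 6 genes called after LPS stayed between 5 and 7 under the alternatives run for it. That of 22 related genes was 21 in DESeq2, 18 without the LPS-stimulated 3′RR-deficient library and 25 with the GC trend removed, the 3 alternatives run for it. The count called higher, 1, was 2 without the LPS-stimulated 3′RR-deficient library, and between 1 and 2 when each genotype was left out, Fas being the gene added. Cd83 lost its call in 3 fits, and Cd38 gained one in 3, as given above. Nt5e did not enter the fit to genes with at least 10 counts in every library. Scaling by the total count lowered the median of all genes by a further log2 shift, from -0.03 to -0.16, and kept the 6 calls. Over all genes the Eμ-deficient calls, 167, were 503 with the wt and Eμ-deficient libraries alone, 553 without the LPS-stimulated 3′RR-deficient library, 659 without the LPS-stimulated wt library, 340 in DESeq2, 605 with no filter and 75 when 10 counts were required everywhere. The 3′RR-deficient calls, 111, were 178 in DESeq2, 178 with the wt and 3′RR-deficient libraries alone, 176 without the LPS-stimulated one, 339 with no filter and 29 with the stricter filter. The LPS calls, 5991, were 3915 without Eμ-deficient libraries. None of these fits called any of the 10 genes between genotypes. Of 70 library ratios, 12 changed sign under an alternative, 7 of them with a counting interval that included 0. The other 5 were, for Eμ-deficient over wt at rest, Cd69 (-0.0552), Cd86 (-0.17) and Cd38 (-0.17) with the GC trend removed, and Cd86 (-0.0279) with the total count. For 3′RR-deficient over wt, they were Icosl at rest (-0.00516 with the total count) and Cd69 after LPS (0.48 with the GC trend removed). The causes were not tested. The genotype term pairs the resting and LPS-stimulated libraries of a genotype. No other pairing was possible, with 1 library per genotype and state and no replicate numbers in the labels. Fas, Nt5e and resting Il2ra rest on 9 to 67 counts in most libraries, which limits their ratios.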
